A study of Homo sapiens with 6 samples.

Results

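The genes described are 9 genes of cellular iron handling, taken by their gene symbols from 62703 Ensembl gene IDs. They are the ferritin chains FTL and FTH1, the ferritin cargo receptor NCOA4, the transferrin receptor TFRC, the iron reductase STEAP3, the importer SLC11A2, the exporter SLC40A1, and the iron regulatory proteins ACO1 and IREB2. All 9 were present in the files and all 9 passed the filter on low counts. Their RNA was measured by paired-end RNA sequencing of total RNA from H929 (NCI-H929), an established human multiple myeloma line labelled wild type. The tested cells received 1 µM Mi-2, a compound that blocks the protease MALT1, for 24 h (3 libraries), and the control cells received the solvent DMSO for 24 h (3 libraries). H929 is 1 line, the titles all carry the tag bio rep 1, and whether the libraries stand for separate cultures is not stated. The p-values therefore cover only the spread among these 6 samples, part or all of which may be technical.

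Iron enters most cells bound to transferrin, which the transferrin receptor carries into endosomes. There a STEAP reductase converts it to ferrous iron and SLC11A2 passes it to the cytosol. Ferritin, a shell of heavy (FTH1) and light (FTL) chains, stores iron in a safe form, NCOA4 delivers ferritin to lysosomes to release that iron, and SLC40A1 (ferroportin) exports it. The iron regulatory proteins ACO1 and IREB2 bind a hairpin, the iron-responsive element, when iron is scarce. Bound to the 5′ UTR of ferritin or ferroportin mRNA they block translation, and bound to the 3′ UTR of TFRC mRNA they protect it from decay. Iron thus acts on ferritin largely through translation, which RNA levels do not show.

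Sequences with the letters of this hairpin are shown for FTL, FTH1, SLC40A1, TFRC and SLC11A2, as sites where the regulators may act. GENCODE release 29 transcripts on GRCh38 were searched on the transcribed strand for the letters CNNNNNCAGTGN followed by 5 bases, where at least 4 of the 5 bases before the loop could pair with those after it (A with T, G with C or T). Windows of 30 bases are printed 5′ to 3′ in DNA letters, with the 6-base loop in capitals.
FTL 5′ UTR, chr19:48965335-48965364, plus strand: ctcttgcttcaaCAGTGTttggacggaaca
FTH1 5′ UTR, chr11:61967573-61967602, minus strand: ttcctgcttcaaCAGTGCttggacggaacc
SLC40A1 5′ UTR, chr2:189580660-189580689, minus strand: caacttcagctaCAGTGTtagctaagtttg
TFRC 3′ UTR, chr3:196050978-196051007, minus strand: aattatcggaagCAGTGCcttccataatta
TFRC 3′ UTR, chr3:196050574-196050603, minus strand: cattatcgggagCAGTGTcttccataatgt
TFRC 3′ UTR, chr3:196050509-196050538, minus strand: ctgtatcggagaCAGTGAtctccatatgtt
TFRC 3′ UTR, chr3:196050462-196050491, minus strand: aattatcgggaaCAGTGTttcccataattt
SLC11A2 3′ UTR, chr12:50988268-50988297, minus strand: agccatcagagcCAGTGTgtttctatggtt
Such a match stood in the 5′ UTR of 0.703% of 10671 genes whose longest 5′ UTR has 100 to 450 bases. At least 1 match stood in the 3′ UTR of 6.96% of 3737 genes whose longest 3′ UTR has 2000 to 4000 bases. At least 4 stood in 0.0268% of them, which is 1 gene, TFRC itself. The 9 genes were not taken out of either background by name. ACO1, whose longest 3′ UTR has 4658 bases, lies outside the range of the second. These shares count only the transcript with the longest UTR of each gene, while the 9 genes were searched in all their coding transcripts. The shares are therefore not a like-for-like background. The SLC11A2 match lies in some of its transcripts only (5 of its 11 coding transcripts). It has 4 of 5 pairs, where the matches shown for FTL, FTH1, SLC40A1 and TFRC have 5. ACO1 and IREB2 also each had 1 match in a 3′ UTR with 4 of 5 pairs, and NCOA4 and STEAP3 had none. A match of letters is a description of the sequence and does not show binding. Lack of a match does not show that an element is absent. EPAS1 and CDC42BPA, counted below among other mRNAs known for the element, had no match.

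After 24 h with Mi-2, RNA of the ferritin light chain was about 2-fold higher and RNA of the transferrin receptor was 1.45-fold lower than with DMSO. Of the 9 genes, 1 was called higher (FTL) and 1 lower (TFRC) at an adjusted p under 0.05 in the quasi-likelihood test of edgeR, adjusted over all 16082 tested genes. The background was 5.02% of tested genes called higher and 6.03% called lower, and nothing about the set as a whole is read from 1 call in each direction. The median log2 fold change of the 9 was -0.039, against 0.0050 over all tested genes. Ranges of CPM, the count scaled to the library size by TMM, were separate for FTL, TFRC and STEAP3, where 15.7% of all tested genes had separate ranges with Mi-2 higher and 16.6% with Mi-2 lower (32.3% in all). In bulk samples fewer cells of a kind and less RNA per cell cannot be told apart. The total estimated counts ran from 21938847 to 23756665 in Mi-2 libraries and from 19980598 to 22651521 in DMSO libraries.

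**Figure D1:**
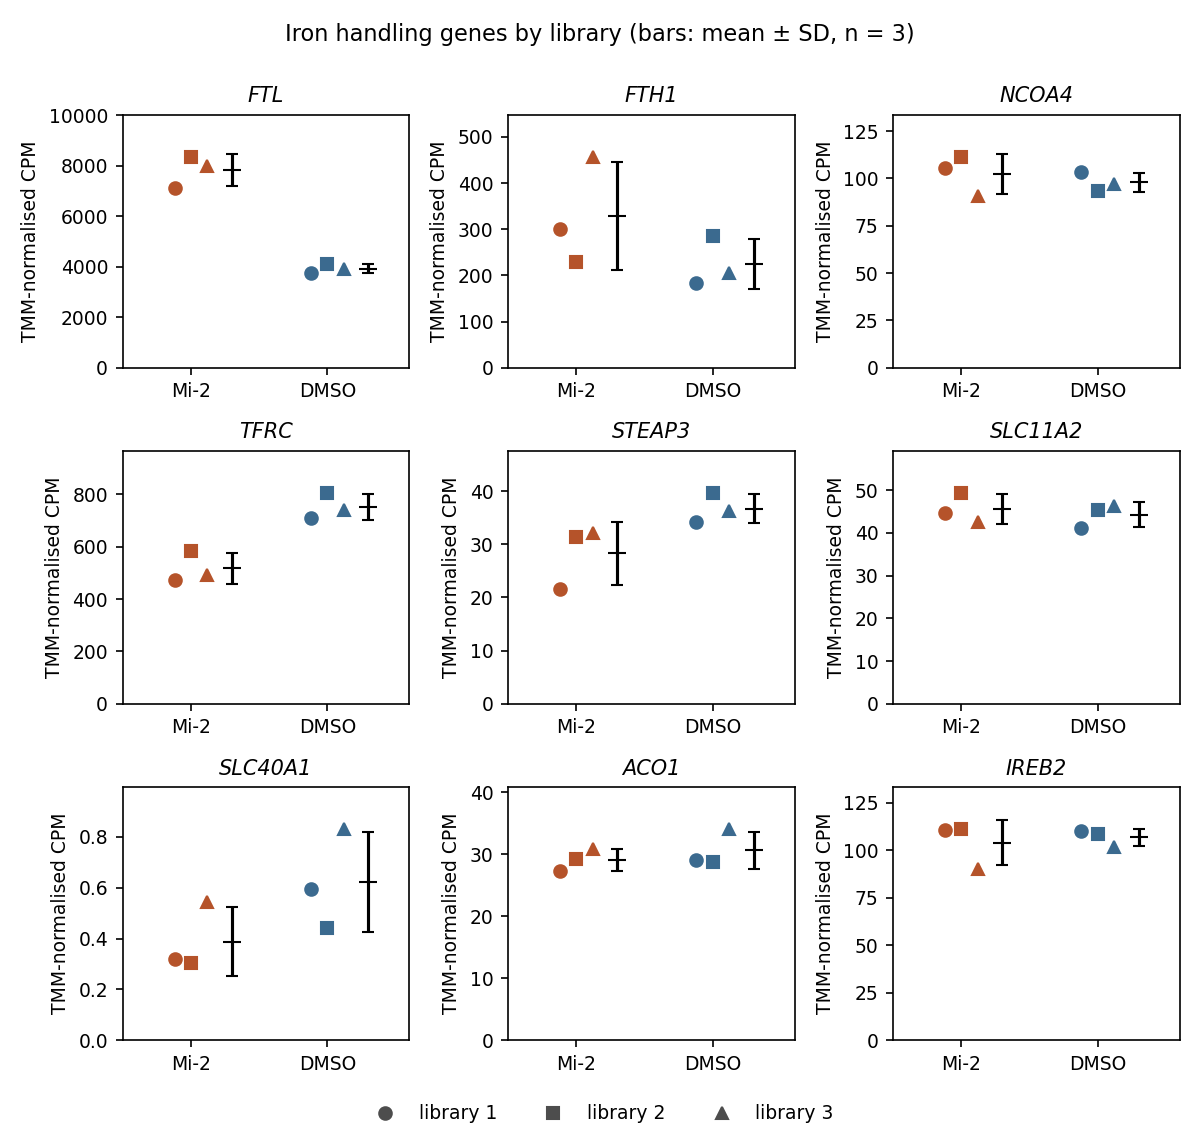
CPM, the count per library size after TMM scaling (vertical axes, each from 0), of the 9 genes in the 3 Mi-2 and 3 DMSO libraries, 1 symbol per library, with the mean ± SD beside each group. FTL stands at 7128 to 8348 CPM in Mi-2 libraries and at 3756 to 4119.6 CPM in DMSO libraries, while TFRC stands lower in all 3 Mi-2 libraries.

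Storage was led by FTL (ENSG00000087086, chromosome 19, 48965301 to 48966878, plus strand), which encodes the light chain that helps ferritin form its mineral core. FTL had 7128, 8348 and 7982 CPM in Mi-2 libraries 1, 2 and 3, against 3756, 4119.6 and 3891 CPM in DMSO libraries 1, 2 and 3. Every Mi-2 library stood far above every DMSO library. The means were 7819.6 ± 626 CPM with Mi-2 and 3922 ± 184 CPM with DMSO (SD, n = 3 each). The log2 fold change was 1.00 ± 0.10 (SE), a 1.99-fold rise with a 95% interval of 0.77 to 1.23 on the log2 scale (edgeR adjusted p = 0.00201). The call held with each of the 6 libraries left out, at log2 fold changes of 0.94 to 1.06 and adjusted p of 0.00270 to 0.0144.

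Corrected for gene length by the authors, FTL had 14192, 15876 and 15064 TPM in Mi-2 libraries 1, 2 and 3, against 7523, 8277 and 7286 TPM in DMSO libraries 1, 2 and 3. Among all genes in the files it ranked 7, 6 and 7 by TPM in the Mi-2 libraries and 11, 9 and 14 in the DMSO libraries. The difference of the mean TPM, 7348, was the largest rise of any of the 16082 tested genes, followed by 2111 TPM for the mitochondrial gene MT-CO2. By fold change FTL ranked 310 among the tested genes, counted from the largest rise. FTL alone took 0.716 to 0.821% of all counts in Mi-2 libraries and 0.378 to 0.411% in DMSO libraries.

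FTH1 (ENSG00000167996, chromosome 11, 61959718 to 61967660, minus strand) encodes the heavy chain, which oxidises iron on its way into the shell. It had 301, 229 and 457 CPM in Mi-2 libraries 1, 2 and 3, against 183, 285 and 204 CPM in DMSO libraries 1, 2 and 3. Mi-2 library 3 was the highest of all and the groups overlapped, since Mi-2 library 2 stood below DMSO library 2. The log2 fold change was 0.55 ± 0.24, with a 95% interval of 0.021 to 1.09, and did not pass the threshold (edgeR adjusted p = 0.168). It was 0.24 without Mi-2 library 3 and 0.76 without DMSO library 2, with adjusted p of 0.0785 to 0.467 over the 6 fits with a library left out. Without the filter on low counts FTH1 was called (edgeR adjusted p = 1.33e-05), in a fit that called 8.78% of 31459 genes in either direction. BEST1 overlaps FTH1 on the other strand, with at most 32.8 counts per library.

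On the TPM scale FTH1 had 384, 409.6 and 559 TPM in Mi-2 libraries 1, 2 and 3, against 235, 372 and 333 TPM in DMSO libraries 1, 2 and 3, and there the ranges did not overlap. Limma on log2(TPM + 1) gave 0.53, with an adjusted p of 0.175. The count per unit of TPM follows the transcript length that the authors' estimate assumed for a gene. For FTH1 it was 1.56, 1.06 and 1.54 times that of FTL in Mi-2 libraries 1, 2 and 3 and 1.56, 1.54 and 1.15 times in DMSO libraries 1, 2 and 3. Mi-2 library 2 and DMSO library 3 thus stood apart for FTH1, while the same quantity of TFRC and NCOA4 varied by 1.04-fold over the 6 libraries. The 6 coding transcripts of FTH1 in GENCODE 29 differ in length, and the part of their estimated mixture in the spread of FTH1 was not tested.

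**Figure D2:**
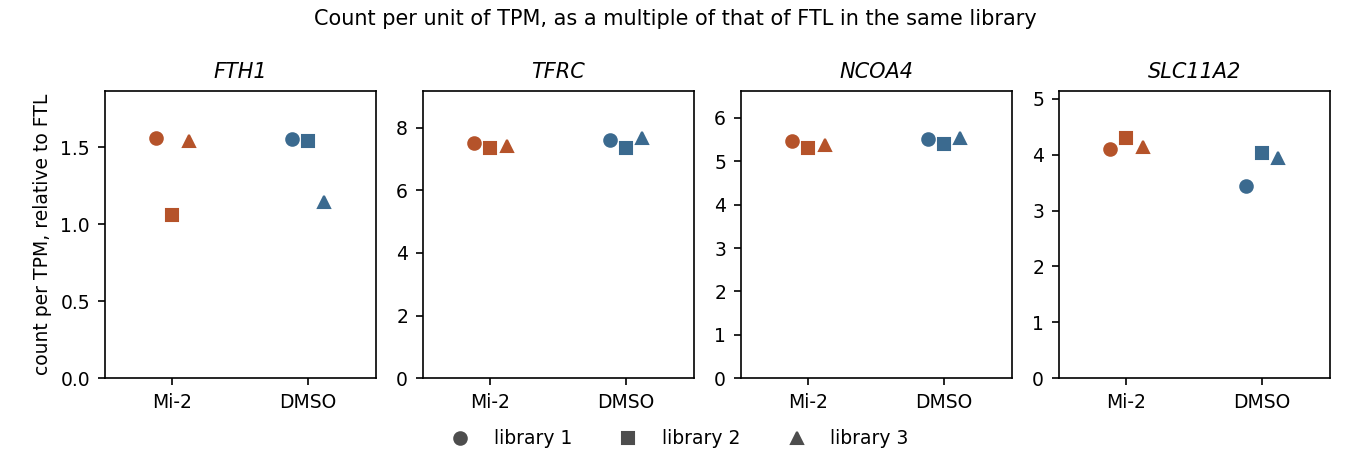
Estimated count divided by TPM, as a multiple of that of FTL in the same library (vertical axes from 0), for FTH1, TFRC, NCOA4 and SLC11A2 in Mi-2 and DMSO libraries. FTH1 lies at 1.54 to 1.56 in 4 libraries and at 1.06 and 1.15 in Mi-2 library 2 and DMSO library 3.

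The ferritin genes have many processed pseudogenes, whose near-identical sequence makes the counts of FTL and FTH1 uncertain. The files held 16 IDs named as FTL pseudogenes and 25 named as FTH1 pseudogenes, whose summed counts were at most 1 and 5.1 per library. How reads that match a parent and a copy were assigned is not given in the sources used here. Summing the pseudogene counts with the parents left FTL at 1.00 and FTH1 at 0.55. The TPM of FTL was 37.0, 38.8 and 27.0 times that of FTH1 in Mi-2 libraries 1, 2 and 3, and 32.0, 22.3 and 21.8 times in DMSO libraries 1, 2 and 3. These ratios overlapped between the groups and inherit the uncertainty of FTH1.

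NCOA4 (ENSG00000266412, chromosome 10, 46005088 to 46030714, minus strand), the receptor for ferritin autophagy, had 105, 111 and 90.5 CPM in Mi-2 libraries 1, 2 and 3, against 103, 93.5 and 97.0 CPM in DMSO libraries 1, 2 and 3. The groups overlapped, with a log2 fold change of 0.065 ± 0.096, a 95% interval of -0.15 to 0.28 and an edgeR adjusted p of 0.717. The interval excludes a 2-fold change in either direction.

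Uptake was led by TFRC (ENSG00000072274, chromosome 3, 196027183 to 196082189, minus strand), the receptor that dividing cells carry in large numbers. It had 474, 584 and 492 CPM in Mi-2 libraries 1, 2 and 3, against 710.3, 804 and 738 CPM in DMSO libraries 1, 2 and 3. All 3 Mi-2 libraries stood below all 3 DMSO libraries. The means were 517 ± 58.8 CPM with Mi-2 and 751 ± 48.0 CPM with DMSO. TFRC fell by 0.54 ± 0.10 on the log2 scale, or 1.45-fold, with a 95% interval of -0.77 to -0.31 (edgeR adjusted p = 0.0132).

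This call was not robust to the choice of libraries. With Mi-2 library 1 left out, the log2 fold change of TFRC was -0.48 with an adjusted p of 0.0577. With DMSO library 2 left out, it was -0.49 with an adjusted p of 0.0621. Those fits called 302 and 390 of all tested genes lower, against 969 with all 6 libraries. In the other 4 fits with a library left out it stayed called, at adjusted p of 0.0207 to 0.0406. On the TPM scale TFRC had 126, 151 and 125 TPM in Mi-2 libraries 1, 2 and 3, against 187, 219 and 181 TPM in DMSO libraries 1, 2 and 3. Those ranges were separate too.

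With FTL higher and TFRC lower, the TPM of FTL was 113, 105 and 120.4 times that of TFRC in Mi-2 libraries 1, 2 and 3, against 40.2, 37.7 and 40.4 times in DMSO libraries 1, 2 and 3. The groups did not overlap in this ratio of stored-iron protein RNA to uptake receptor RNA. It is a description built from the values above and carries no test of its own.

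**Figure D3:**
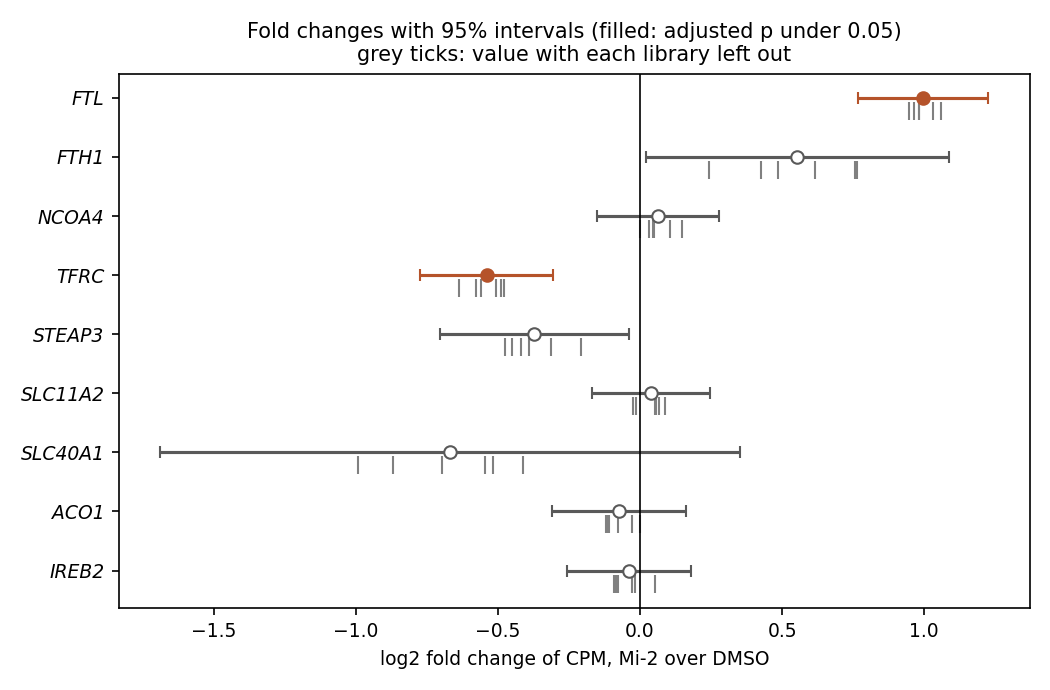
Log2 fold changes of CPM, Mi-2 over DMSO (horizontal axis), of the 9 genes ordered by role, with 95% intervals from the edgeR fit and grey ticks for the value with each library left out. FTL (1.00) and TFRC (-0.54) are filled as called, and SLC40A1 has the widest interval (-1.69 to 0.35).

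STEAP3 (ENSG00000115107, chromosome 2, 119223831 to 119265652, plus strand), an endosomal iron reductase known from erythroid cells, had 21.5, 31.3 and 32.2 CPM in Mi-2 libraries 1, 2 and 3. It had 34.3, 39.6 and 36.2 CPM in DMSO libraries 1, 2 and 3, all above the Mi-2 libraries, of which library 1 was the lowest. The log2 fold change of -0.37 ± 0.15 did not pass the threshold (95% interval -0.71 to -0.039, edgeR adjusted p = 0.140), and without Mi-2 library 1 it was -0.21. The antisense gene STEAP3-AS1 overlaps it on the other strand with at most 10.9 counts per library, and whether its reads entered the count of STEAP3 was not tested.

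SLC11A2 (ENSG00000110911, chromosome 12, 50979401 to 51028566, minus strand), also known as DMT1, had 44.7, 49.3 and 42.4 CPM in Mi-2 libraries 1, 2 and 3, against 41.0, 45.4 and 46.3 CPM in DMSO libraries 1, 2 and 3. The groups overlapped, and the log2 fold change was 0.039 ± 0.093 (95% interval -0.17 to 0.25, edgeR adjusted p = 0.831). On the TPM scale the order differed: 21.7, 21.8 and 19.4 TPM in Mi-2 libraries 1, 2 and 3 lay below 23.9, 22.6 and 22.01 TPM in DMSO libraries 1, 2 and 3. Limma on log2(TPM + 1) gave -0.12 with an adjusted p of 0.507. The count per unit of TPM of SLC11A2 varied 1.25-fold over the libraries and was lowest in DMSO library 1. Its transcripts with and without the iron-responsive element could not be told apart in values summed per gene.

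Export by SLC40A1 (ENSG00000138449, chromosome 2, 189560579 to 189583758, minus strand) was barely measured. Its estimated counts were 7, 7 and 13 in Mi-2 libraries 1, 2 and 3 and 12, 10 and 18 in DMSO libraries 1, 2 and 3. The log2 fold change of -0.67 ± 0.46 had a 95% interval of -1.69 to 0.35 (edgeR adjusted p = 0.386), an interval that holds both no change and a 2-fold decrease at this depth.

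The iron regulatory proteins had close values in both groups. ACO1 (ENSG00000122729, chromosome 9, 32384603 to 32454769, plus strand), the cytosolic aconitase that becomes an RNA-binding protein when it loses its iron-sulfur cluster, had 27.3, 29.2 and 30.8 CPM in Mi-2 libraries 1, 2 and 3. It had 29.1, 28.7 and 34.0 CPM in DMSO libraries 1, 2 and 3, within an overlapping range (log2 fold change -0.074 ± 0.10, 95% interval -0.31 to 0.16, edgeR adjusted p = 0.701). IREB2 (ENSG00000136381, chromosome 15, 78437431 to 78501456, plus strand), which is degraded as protein when iron is plentiful, had 110.4, 111 and 90.3 CPM in Mi-2 libraries 1, 2 and 3. In DMSO libraries 1, 2 and 3 it had 110.0, 108 and 102 CPM, again overlapping (-0.039 ± 0.098, 95% interval -0.26 to 0.18, edgeR adjusted p = 0.840). Both intervals exclude a 2-fold change, and RNA levels do not show the activity of either protein.

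Compared per gene length, the order of levels began with FTL (15044 ± 842 TPM with Mi-2 and 7695 ± 518 TPM with DMSO), FTH1 (451 ± 94.4 and 313 ± 70.3 TPM), TFRC (134 ± 14.9 and 196 ± 20.7 TPM) and NCOA4 (36.7 ± 4.32 and 35.1 ± 2.34 TPM), with Mi-2 first in each pair. These 4 steps did not overlap in either group. IREB2 (22.6 ± 3.71 TPM with Mi-2 and 22.5 ± 2.99 TPM with DMSO) and SLC11A2 (21.0 ± 1.39 and 22.9 ± 0.976 TPM) overlapped in both groups. STEAP3 (9.23 ± 1.91 TPM with Mi-2 and 12.4 ± 1.56 TPM with DMSO) and ACO1 (8.69 ± 0.431 and 8.75 ± 0.333 TPM) overlapped with Mi-2 but not with DMSO. SLC40A1 came last, at 0.12 to 0.33 TPM in Mi-2 libraries and 0.23 to 0.58 TPM in DMSO libraries.

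**Figure D4:**
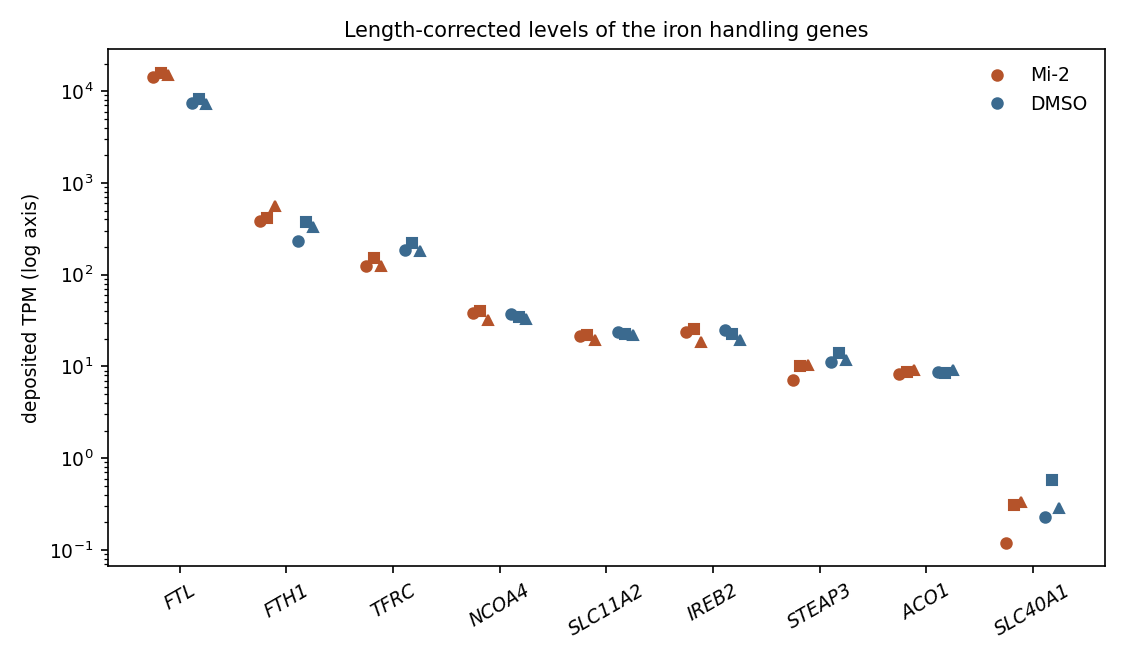
Deposited TPM of the 9 genes (vertical log axis), ordered by their mean in DMSO libraries, with 3 Mi-2 libraries to the left of 3 DMSO libraries for each gene. FTL lies at 7286 to 15876 TPM and SLC40A1 at 0.12 to 0.58 TPM.

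Other genes of iron physiology were followed in 7 lists besides the 9 genes, and each list is given by its counts without a test of the list. Over all genes, DESeq2 called 1045 higher and 1269 lower. Without the count filter edgeR called 1221 higher and 1541 lower, and with 1 library left out 216 to 715 higher and 302 to 866 lower. The share of all genes at an unadjusted p under 0.05 is not given, so nothing is read from counts at that threshold. Of 25 tested genes of iron uptake, transport and regulation, 1 rose and none fell, against 5.02% and 6.03% of all tested genes, with a median log2 fold change of 0.092. None fell in DESeq2 either, while 1 was called lower with Mi-2 library 2 or DMSO library 3 dropped and 2 without the count filter, and 3 had a negative value at an unadjusted edgeR p under 0.05. The gene that rose was MARCHF8, whose ubiquitin ligase is known to remove the transferrin receptor from the cell surface (24.4 ± 2.11 CPM with Mi-2 and 17.8 ± 1.78 CPM with DMSO, 0.46 ± 0.12, edgeR adjusted p = 0.0374). MARCHF8 kept its call in 2 of 6 fits with a library left out, those that dropped Mi-2 library 3 and DMSO library 1 (adjusted p of the others at most 0.143).

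The regulators FBXL5, the ligase subunit that marks IREB2 for decay (0.023 ± 0.14), PCBP1 (-0.0017 ± 0.086) and PCBP2 (-0.15 ± 0.079), which carry iron to ferritin, and the transporter gene SLC39A14 (0.060 ± 0.084) did not pass the threshold. The values of FBXL5 and PCBP1 changed sign under other settings, as given in the closing part on processing. TFR2, a second transferrin receptor, had 6.09 ± 1.98 CPM with Mi-2 and 8.08 ± 1.39 CPM with DMSO (-0.41 ± 0.24, edgeR adjusted p = 0.314). HFE, its partner in iron sensing, had at most 0.587 CPM in any library. The hormone gene HAMP and the mitochondrial ferritin gene FTMT had no counts in any library.

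In the haem list 1 of 24 tested genes rose and 1 fell, with a median of 0.036. That is 4.17% in each direction, below the 5.02% and 6.03% of all tested genes. BLVRB, a biliverdin reductase gene, had 30.1, 30.2 and 32.7 CPM in Mi-2 libraries 1, 2 and 3, against 16.9, 14.4 and 17.5 CPM in DMSO libraries 1, 2 and 3. These ranges lay far apart, and BLVRB rose by 0.93 ± 0.11 on the log2 scale (edgeR adjusted p = 0.00261), a call that held with every library left out. BLVRA, the other biliverdin reductase gene of the list, named after its value was seen, was not called (-0.24 ± 0.13, edgeR adjusted p = 0.250). FLVCR1, a haem exporter, had 14.0 ± 0.917 CPM with Mi-2 and 19.7 ± 1.48 CPM with DMSO and fell by 0.50 ± 0.12 (edgeR adjusted p = 0.0257). Its call held in 1 of 6 fits with a library left out, the one that dropped Mi-2 library 3, and the highest adjusted p was 0.104. HMOX1, the haem oxygenase that frees iron from haem, varied widely, with 45.2, 29.1 and 41.6 CPM in Mi-2 libraries 1, 2 and 3 and 40.8, 17.1 and 21.9 CPM in DMSO libraries 1, 2 and 3. Its value of 0.54 ± 0.28 did not pass (edgeR adjusted p = 0.255), and with DMSO library 1 dropped HMOX1 was called (adjusted p = 0.0198). It was also called without the count filter (adjusted p = 0.00043).

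Of 31 tested genes of iron-sulfur cluster assembly, 5 fell and none rose, against backgrounds of 6.03% and 5.02%, and 23 of 31 values were negative with a median of -0.18. None was called higher by DESeq2 or had a positive value at an unadjusted edgeR p under 0.05. Those that fell included BOLA3, a late-acting assembly factor of mitochondria (-0.64 ± 0.13), the cytosolic factor NUBP1 (-0.47 ± 0.11), the mitochondrial chaperone HSPA9 (-0.38 ± 0.092) and NDUFAB1 (-0.29 ± 0.077), at edgeR adjusted p of 0.0169 to 0.0426 for these 4. Dropping Mi-2 library 1, 2 or 3 left 0, 3 and 1 falls, and dropping DMSO library 1, 2 or 3 left 2, 0 and 0. Over all tested genes these fits called 302, 740 and 866, and then 736, 390 and 418, lower, against 969 with all 6 libraries.

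Enzymes that use iron split in both directions, with 4 rises and 6 falls among 33 tested, or 12.1% and 18.2% against backgrounds of 5.02% and 6.03%, and a median of 0.0017. RRM2, the iron-containing subunit of the enzyme that makes deoxyribonucleotides, had 400.0, 389 and 437 CPM in Mi-2 libraries 1, 2 and 3, against 837, 746 and 748 CPM in DMSO libraries 1, 2 and 3. RRM2 fell by 0.93 ± 0.092 (edgeR adjusted p = 0.00196), as did DNA2 (-0.95 ± 0.16), POLD1 (-0.88 ± 0.14) and BRIP1 (-0.83 ± 0.15), iron-sulfur enzymes of DNA synthesis and repair, and these 4 kept their calls with every library left out. In limma on log2(TPM + 1) RRM2 and POLD1 stayed called, while DNA2 (adjusted p = 0.0758) and BRIP1 (0.0695) did not. PPAT, of purine synthesis, also fell (-0.48 ± 0.12), a call that held in 1 of 6 fits with a library left out, the one that dropped Mi-2 library 2. The rises were the histone demethylases KDM4C (0.42 ± 0.10), KDM5B (0.34 ± 0.085), KDM4A (0.32 ± 0.083) and KDM5A (0.30 ± 0.078). Dropping Mi-2 library 3 left 3 rises, and dropping any other single library left 0. Over all tested genes 715 rises were called without Mi-2 library 3 and 216 to 642 without another library, against 808 with all 6.

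Among 24 tested ferroptosis genes, which guard against or drive iron-dependent lipid peroxidation, none was called in the edgeR fit of all 6 libraries with the count filter. Dropping 1 library gave no call higher and 0 to 2 calls lower, and edgeR without the count filter called 2 higher and 3 lower. At an unadjusted p under 0.05 there were 1 positive and 5 negative values. DESeq2 called 1 lower and none higher, against 1269 and 1045 over all genes. That gene, named after its value was seen, was MBOAT2. GPX4, the main guard and also named after its value was seen, had a log2 fold change of -0.17 ± 0.12 (edgeR adjusted p = 0.393). Of the other mRNAs known for an iron-responsive element, 4 were tested and none was called in the edgeR fit of all 6 libraries with the count filter or in DESeq2, with 1 positive value at an unadjusted edgeR p under 0.05.

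Of 15 tested cofactors and receptors of selective autophagy, 6 rose and none fell, against backgrounds of 5.02% and 6.03%, and the median was 0.29. The list is wider than the route that NCOA4 uses. No value was negative at an unadjusted edgeR p under 0.05, and DESeq2 called none lower. The rises included GABARAPL1 (0.80 ± 0.14), MAP1LC3B (0.73 ± 0.13) and GABARAP (0.59 ± 0.11), which coat the autophagosome membrane, and the cargo receptors NBR1 (0.50 ± 0.12) and OPTN (0.47 ± 0.10). Dropping Mi-2 library 1, 2 or 3 left 2, 3 and 6 rises, and dropping DMSO library 1, 2 or 3 left 4, 1 and 2. Over all tested genes these fits called 216, 516 and 715, and then 642, 246 and 275, higher, against 808 with all 6 libraries. GABARAPL1 was called with each library left out, at adjusted p of 0.0106 to 0.0427, but not in limma on log2(TPM + 1).

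**Figure D5:**
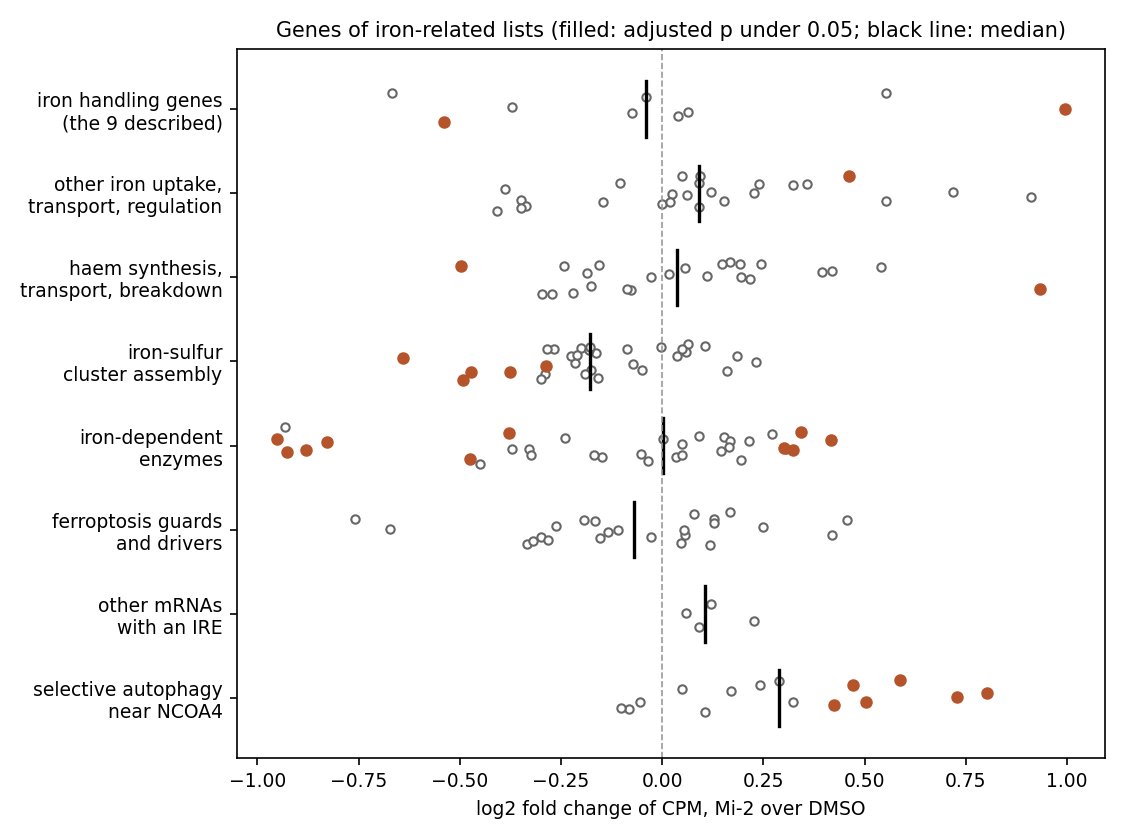
Log2 fold changes of CPM, Mi-2 over DMSO (horizontal axis), of tested genes in the 9-gene set and in 7 iron-related lists, 1 point per gene, filled where the adjusted p was under 0.05, with a black line at each median. The autophagy list has its median at 0.29 and the iron-sulfur list at -0.18, and the 9 iron handling genes at -0.039.

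Markers of the labelled cell type were abundant, and 11 of 12 plasma cell and myeloma markers were tested. Their summed level was 12857 to 14998 CPM in Mi-2 libraries and 12172 to 15272 CPM in DMSO libraries, with CD79A at most 0.398 CPM. Of the 11, 2 were called higher and 3 lower (18.2% and 27.3%, against backgrounds of 5.02% and 6.03%). MZB1 (0.70 ± 0.11) and IRF4 (0.35 ± 0.094) rose, and CD38 (-0.86 ± 0.21), FGFR3 (-0.72 ± 0.080) and SDC1 (-0.69 ± 0.15) fell on the log2 scale, at edgeR adjusted p of 0.00209 to 0.0441. Macrophages handle much iron, but the 12 macrophage and myeloid markers summed to 2.36 to 3.54 CPM in Mi-2 libraries and 1.29 to 4.66 CPM in DMSO libraries, and CD163 and CD14 had at most 2 and 10 counts. The scavenger receptor gene MARCO was called higher, at a mean of 0.478 CPM with Mi-2. The erythroid list summed to 20.1 to 46.5 CPM in Mi-2 libraries and 23.4 to 44.6 CPM in DMSO libraries, with no member called of 7 tested, none at an unadjusted edgeR p under 0.05, and AHSP at 0. The T and NK list summed to 40.1 to 45.7 CPM with Mi-2 and 27.1 to 33.2 CPM with DMSO, nearly all from CD3E, which was called higher, with CD3D and CD8A at 0. Hepatocyte and epithelial markers summed to 18.6 to 22.3 CPM with Mi-2 and 9.24 to 12.7 CPM with DMSO, mostly KRT18, which was called higher. The part of these lists in the results above was not tested.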

How the data were processed

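Per the submitters' processing notes, which give no roles, RSEM 1.3.3, StringTie 2.1.0, HISAT2 2.1.0, fastp 0.19.5 and the build GRCh38.p13 were used. Of strand handling, the sources used here say nothing. The authors deposited estimated counts per gene, not scaled between libraries and here rounded to whole numbers, and TPM values, which correct for gene length. Columns matched samples by name.

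edgeR 4.0.16 (R 4.3.3) with filterByExpr (minimum count 10, minimum total 15) and TMM left 16082 genes. Its quasi-likelihood F test compared 3 Mi-2 with 3 DMSO libraries, with Benjamini-Hochberg adjustment over all tested genes and a threshold of 0.05. Standard errors are the fold change over the root of its F value. The 95% intervals use the t quantile of its total degrees of freedom (9.72 for the 9 genes). That total adds a prior shared over genes to the residual degrees of freedom of the libraries. Levels between genes use TPM. TPM fits with limma 3.58.1 are on the log2(value + pseudocount) scale, on which low genes change by less, and DESeq2 1.42.0 was an alternative. The biological coefficient of variation was 14.2%. Pairs of libraries in a group gave a chi-square of 16.4 to 23.5 per degree of freedom over genes, so none was a copy. Coordinates and UTRs are from GENCODE 29, whose release may differ from the authors' annotation. Named were the 9 genes, the called genes of each list with the largest fold changes (up to 5 a direction, average log2 CPM 1 or more), and 10 genes set by name, of which some values are not reported here. The members and lists were chosen with earlier results of these data known. Alternatives changed the scaling, filters, tool, pseudocount, block and libraries. The tests were checked on simulated counts.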

Additional observations from a re-analysis of the deposited data

How the results depend on the processing

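FTL and TFRC kept their direction under all 17 alternatives, with log2 fold changes of 0.94 to 1.06 and -0.64 to -0.48. Limma on log2(TPM + 1) with no TPM filter called none of the 9 genes and no gene at all (0 higher, 0 lower), so FTL (adjusted p = 0.101) and TFRC (0.129) were lost there. With all 31459 genes kept regardless of count, edgeR called 2 of the 9 higher (FTH1 added, adjusted p = 1.33e-05) and 2 lower (STEAP3 added, 0.0251), and 1221 genes higher and 1541 lower in all. The cause was not tested. Limma on TPM with 1 or 0.1 added called 229 or 249 genes higher and 381 or 398 lower. With the library number as a replicate block, 2 of the 9 were called lower (STEAP3 added, adjusted p = 0.0247), 1791 genes higher and 2035 lower in all (23.8%). The numbers were not taken as pairs because the labels name no pairing. Deviations of same-numbered libraries correlated at 0.41, 0.059 and 0.26 for numbers 1, 2 and 3. Those of different numbers correlated at -0.33 (Mi-2 library 1 with DMSO library 3) to 0.079 (Mi-2 library 2 with DMSO library 3). Whether a shared number marks a shared origin was not tested. With 1 library left out, 0 to 1 of the 9 were called lower and 1 higher, and 216 to 715 genes were called higher and 302 to 866 lower in all. Signs turned for 7 named genes: ACO1 (-0.12 to 0.00090 with a library left out), NCOA4 (-0.0012 to 0.15), IREB2 (0.0018, 0.0017 and 0.0018 on TPM with 1, 0.1 and 1 unfiltered, -0.090 to 0.053 with a library left out), SLC11A2 (-0.12 in each TPM fit, -0.024 to 0.087 with a library left out), FBXL5 (-0.19, -0.21 and -0.19 on TPM, -0.084 to 0.11 with a library left out), HFE (-0.024 on unfiltered TPM) and PCBP1 (0.026 with upper-quartile factors, 0.0018 with the 1 CPM filter, -0.055 to 0.041 with a library left out). The block also called HMOX1 (0.60, adjusted p = 0.0127), and in the ferroptosis list 3 genes higher and 5 lower, in the iron uptake, transport and regulation list 2 higher and 3 lower, and among other mRNAs with the element 1 higher. In the haem list DESeq2 called 3 genes higher and 3 lower, against 1045 and 1269 over all genes. On log2(TPM + 1), 2 autophagy genes were called higher (MAP1LC3B and OPTN) and 2 iron-sulfur genes lower (BOLA3 and HSPA9). Of the iron-dependent enzymes 0 were called higher there and 2 lower (POLD1 and RRM2). Over the named genes, 464 values of the alternatives kept their direction and side of the threshold, 132 fell below it, 7 passed it and 22 turned sign. Depth limits SLC40A1 and HFE.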

Other observations

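Genes whose pattern over the 6 libraries was most like that of 3 iron genes were found among 7788 protein-coding genes at or above a mean log2 CPM of 4, by the root-mean-square difference of centred log2 CPM. Nearest to FTL were SLC50A1, a sugar transporter gene (0.117), STING1, an adaptor of DNA sensing (0.121), and ARMCX3 (0.139). Nearest to TFRC were SORD, the sorbitol dehydrogenase gene (0.0126), NLN, which encodes neurolysin (0.0357), and DCK, the deoxycytidine kinase gene (0.0359). SORD had 61.4, 76.5 and 64.5 CPM in Mi-2 libraries 1, 2 and 3, against 91.2, 106 and 96.3 CPM in DMSO libraries 1, 2 and 3, with the middle library the highest in both groups as for TFRC. FTH1 had no neighbour as close, with HEBP2 at 0.210, APBB1IP at 0.212 and ZDHHC24 at 0.214.

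Some globin RNAs, which encode haem proteins of red cells, differed more between library numbers than between treatments. HBG1 had 0, 2.41 and 3.56 CPM in Mi-2 libraries 1, 2 and 3 and 0, 2.25 and 3.32 CPM in DMSO libraries 1, 2 and 3. HBA1 had 0.0907, 1.85 and 3.65 CPM in Mi-2 libraries 1, 2 and 3 and 0, 2.48 and 3.14 CPM in DMSO libraries 1, 2 and 3. Library 1 was at or near 0 for both genes in both treatments. The other globins did not share this pattern throughout. HBD, the most abundant, had 8.94, 18.7 and 14.4 CPM in Mi-2 libraries 1, 2 and 3 and 9.89, 16.2 and 11.7 CPM in DMSO libraries 1, 2 and 3. HBA2 had 0 CPM in all 3 Mi-2 libraries and 0.298, 0.133 and 0.599 CPM in DMSO libraries 1, 2 and 3. Near-identical globin copies can share reads, so HBA1 and HBA2, like HBG1 and its copy HBG2, are uncertain one by one, and the source of this RNA was not tested.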
